A study of Mus musculus with 12 samples.

Results

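MicroRNA genes that gave a measurable signal in mouse skin were followed over 24 h in response to an intradermal injection of RNAdjuvant. A member is a gene whose symbol starts with Mir and a digit, or is a let-7 gene, that has a probe set with this 1 symbol and a mean of at least 5 on the log2 scale over all 12 arrays. Of 300 such microRNA genes, 92 reached that mean, out of 19938 genes in all. The symbol rule also let in Mir99ahg and Mir100hg, whose symbols name host genes of microRNAs, and both are counted among the 92. The mean over all arrays chose the members, so their levels are a description. The rule used no difference between groups, but 5 members would have a mean below 5 if 1 group were left out, and so passed the limit through that group. These were Mir143, Mir107 and Mir155 (4.96, 4.94 and 4.92 without the 6 h arrays), Mir128-1 (4.94 without the untreated arrays and 4.99 without those of 6 h) and Mir1839 (4.91 without the 1.5 h arrays).

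The skin came from female Balb/c mice and was profiled on Affymetrix Mouse Gene 1.0 arrays, 3 for each of 4 groups: no treatment, or 1.5 h, 6 h or 24 h after intradermal RNAdjuvant. The labelled dose is 25 mg, a unit that was not checked. Untreated mice were the only controls, so the needle and the injected volume cannot be told apart from RNAdjuvant. The labels call the arrays of a group biological replicates and do not number the animals. RNAdjuvant is an RNA-based adjuvant, a substance given to make innate immune cells respond.

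A microRNA begins as a long primary transcript, often inside the intron of a protein-coding gene. The nuclear enzyme Drosha with its partner Dgcr8 cuts out a hairpin, Xpo5 carries it to the cytoplasm, Dicer1 trims it, and one strand is loaded into an Argonaute protein. Bases 2 to 8 of that mature strand, the seed, guide it to matching messenger RNAs, which are then repressed. In skin, miR-205 is abundant in keratinocytes, miR-143 in smooth muscle and fibroblasts, miR-211 in pigment cells, and miR-155 is known for its induction in activated immune cells. A whole-transcript array of column-purified RNA can detect the primary transcript or hairpin of a microRNA gene, and the values below are not levels of the mature strands.

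The mature sequences of the microRNAs on which the results turn are given first, grouped by seed, from RefSeq (GRCm38.p6), with the seed in capitals. RefSeq's table held mature sequences for 81 of the 92 genes. The first group shares the seed AGCAGCA, and is shown because Mir15a and Mir195a passed the test in at least 1 comparison and Mir497 in none.
miR-15a-5p: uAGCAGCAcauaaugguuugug
miR-195a-5p: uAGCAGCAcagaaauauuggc
miR-497a-5p: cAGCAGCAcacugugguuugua

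The strand of Mir103-2 and that of Mir107 share the seed GCAGCAU, and each gene lies inside a pantothenate kinase gene.
miR-103-3p: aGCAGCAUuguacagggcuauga
miR-107-3p: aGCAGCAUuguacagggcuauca

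Mir99a and Mir99b share the seed ACCCGUA, and are shown because only Mir99a passed the test in any comparison.
miR-99a-5p: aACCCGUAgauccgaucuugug
miR-99b-5p: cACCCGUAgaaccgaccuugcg

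The 4 members of the miR-181 family share the seed ACAUUCA and come from a pair of genome clusters.
miR-181a-5p: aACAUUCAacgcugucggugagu
miR-181b-5p: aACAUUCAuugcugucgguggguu
miR-181c-5p: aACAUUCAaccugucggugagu
miR-181d-5p: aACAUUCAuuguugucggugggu

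The following come from genes that passed the test against untreated skin, or, for miR-205 and miR-155, are known for their part in skin or in immune cells.
miR-128-3p: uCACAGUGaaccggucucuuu
miR-677-5p: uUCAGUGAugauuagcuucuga
miR-211-5p: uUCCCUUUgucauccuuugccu
miR-365-3p: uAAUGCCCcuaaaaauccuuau
miR-205-5p: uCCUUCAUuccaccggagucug
miR-155-5p: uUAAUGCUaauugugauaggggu

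In GRCm38.p6 miR-15a-5p lies at chr14:61632075-61632096 on the minus strand, inside the long non-coding RNA gene Dleu2 on the same strand. The sequence of miR-103-3p from Mir103-2 lies at chr2:131288103-131288125 on the plus strand inside Pank2, and miR-107-3p at chr19:34820700-34820722 on the minus strand inside Pank1. The position of miR-128-3p from Mir128-1 is chr1:128202404-128202424 on the plus strand inside R3hdm1, and miR-677-5p is at chr10:128085291-128085312 on the plus strand inside Atp5b. A position of chr7:64205831-64205852 on the plus strand, inside Trpm1, holds miR-211-5p. For miR-195a-5p the position is chr11:70235062-70235082 and for miR-497a-5p it is chr11:70234730-70234751, both on the plus strand and so in 1 cluster. Finally, miR-99a-5p lies at chr16:77598940-77598961 on the plus strand.

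Array medians over all probe sets ran from 5.53 to 5.76, and were 5.53 to 5.60 at 1.5 h against 5.65 to 5.70 in untreated skin. The label skin was borne out by 6 measured keratinocyte markers, whose mean level was 11.42 to 11.80 on every array. Samples also differed in tissue that the groups do not name. Glycam1, a lymph node venule gene, was at 11.38 in 1.5 h replicate 1 and 10.88 in 6 h replicate 1, and at 3.87 to 4.46 elsewhere. The mean of 5 glandular epithelium markers was 5.66 to 5.94 in untreated skin, 7.77 to 8.99 at 1.5 h, 5.49 to 8.54 at 6 h and 7.61 to 8.19 at 24 h. Of 4 sebaceous gland markers 2 were lower at 1.5 h, with a mean level of 7.72 to 8.57 against 9.31 to 9.63 untreated. Of 4 hair follicle markers 2 were lower at 6 h, and their mean level was 5.94 to 9.67 untreated and 4.75 to 5.87 at all later times. Of 5 neutrophil and monocyte markers 2 were higher at 1.5 h, 1 at 6 h and 1 at 24 h, with a mean level of 7.70 to 8.03 untreated and 8.09 to 9.0 later. Myl2, a muscle gene, was at 10.56 and 10.43 in 1.5 h replicates 1 and 2 and at 10.57 and 9.33 in 24 h replicates 1 and 3, against 6.88 in 6 h replicate 3 and 4.29 to 5.38 elsewhere. In bulk tissue, fewer cells of a type and less RNA per cell cannot be told apart. The part of these differences in the microRNA results was not tested, except that results are also given without both arrays high in Glycam1 and without the 4 arrays highest in Myl2. The latter leaves a single array at 1.5 h and a single array at 24 h. A call lost in that setting therefore cannot be told apart from the loss of arrays.

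Most of the microRNA genes were dim. The mean level ran from 5.0 (Mir155) to 9.13 (Mir598) with a median of 5.71, and 59 of 92 lay below 6. Only 8 were at 7 or above, led by Mir598 at 9.13, Mir692-1 at 8.99, Mir346 at 7.74, Mir667 at 7.67 and Mir328 at 7.61. Levels of different probe sets are not comparable as amounts of RNA, because each probe set has its own response. Of these 5 bright members, Mir346 alone passed a test, rising by 0.48 from 1.5 h to 6 h (adjusted p = 0.016 in limma). That call ended without 1.5 h replicate 1, 1.5 h replicate 2 or 6 h replicate 2 (limma, adjusted p up to 0.072). It also ended without both arrays high in Glycam1 (limma, adjusted p = 0.099). The rise was 0.34 without the 4 arrays highest in Myl2. The microRNA genes just inside the limit of 5 were Mir155 (5.0), Mir107 (5.02) and Mir497 (5.07), and those just outside were Mir680-1 (4.99), Mir425 (4.99) and Mir191 (4.97).

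Across the course, microRNA genes were mostly lower than untreated at 1.5 h, higher at 6 h, and near the untreated level at 24 h. The median difference from the untreated mean over the 92 genes was -0.10 at 1.5 h, 0.20 at 6 h and -0.01 at 24 h on the log2 scale, beside 0.02, -0.04 and 0.00 over all genes. By array, that median was -0.19, -0.16 and 0.02 at 1.5 h, 0.11, 0.30 and 0.15 at 6 h, and 0.02, -0.08 and -0.05 at 24 h. So 1.5 h replicate 3 did not share the low median of the other 1.5 h arrays, and 6 h replicate 2 had the highest. The mean of 6 skeletal muscle markers was 12.22 and 12.30 in 1.5 h replicates 1 and 2 and 11.16 in replicate 3, and 12.27 and 11.80 in 24 h replicates 1 and 3, where the microRNA medians were 0.02 and -0.05. Its part in the low medians was not tested. Among the untreated arrays themselves the median ran from -0.06 to 0.10. With each array centred on its median, the median at 1.5 h became -0.00 and that at 6 h 0.17.

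**Figure D1:**
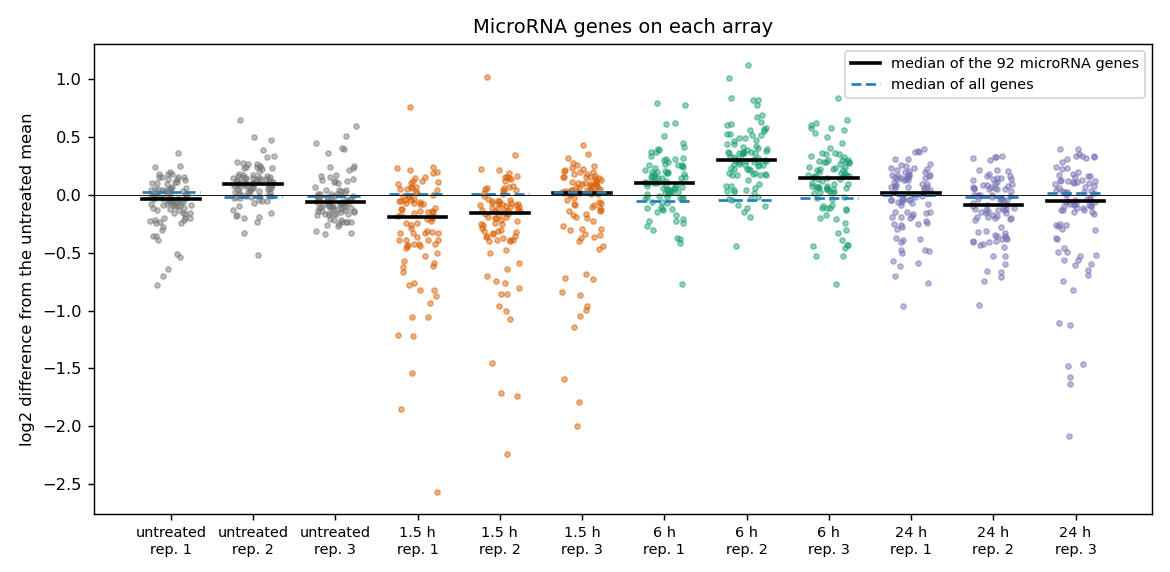
Difference of each of the 92 microRNA genes from its untreated mean (vertical axis, log2) on each of the 12 arrays; points are genes, black bars the median of the microRNA genes and dashed blue bars the median of all genes. The medians are -0.19, -0.16 and 0.02 on the 1.5 h arrays and 0.11, 0.30 and 0.15 on the 6 h arrays.

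At 1.5 h, 6 of the 92 microRNA genes fell and 0 rose against untreated skin (6.52% called). Over all genes 2.2% were called in this comparison, 1.59% lower and 0.612% higher. A call is an adjusted p under 0.05 in limma, with Benjamini-Hochberg adjustment over all 19938 genes. The 6 were Mir15a, Mir99a, Mir99ahg, Mir128-1, Mir677 and Mir143. At an unadjusted p under 0.05, 22 of the 92 would count (23.9%), beside 17.5% of all genes. Without the 4 arrays highest in Myl2, which leaves 1 array at 1.5 h that is assumed to vary like the others, 0 of the 92 were called. The differences of the 6 genes were then -1.80 for Mir15a, -2.0 for Mir99a, -1.0 for Mir99ahg, -1.05 for Mir128-1, -0.96 for Mir677 and -0.87 for Mir143, with limma's adjusted p from 0.16 to 0.42.

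Mir15a, whose mature strand is known to restrain cell cycle genes and the survival factor Bcl2, had the largest fall. Its log2 values were 6.94, 7.71 and 8.09 in untreated skin, 5.01, 5.84 and 5.78 at 1.5 h, 7.31, 7.66 and 7.05 at 6 h, and 6.81, 7.37 and 6.89 at 24 h. All 1.5 h arrays lay below every other array, and the later groups overlapped the untreated one. The mean went from 7.58 ± 0.58 to 5.54 ± 0.47 (SD, n = 3), a difference of -2.04 with a standard error of 0.29 (limma, adjusted p = 0.0042). This call held with any 1 array left out, the highest adjusted p being 0.023.

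Mir99a belongs to an old family of microRNAs that targets the growth kinase Mtor, and Mir99ahg is the non-coding gene named as its host. Mir99a read 6.67, 7.72 and 7.74 in untreated skin, 6.16, 5.14 and 5.38 at 1.5 h, 7.99, 7.95 and 6.61 at 6 h, and 6.42, 6.98 and 5.90 at 24 h. Arrays at 1.5 h and untreated arrays did not overlap, but within the untreated and 6 h groups 1 array stood more than 1 unit below the others. The fall at 1.5 h was -1.82 with a standard error of 0.41 (limma, adjusted p = 0.036). Mir99ahg read 5.64, 6.74 and 6.87 untreated and 4.88, 4.70 and 5.42 at 1.5 h, a difference of -1.42 (standard error 0.30, limma adjusted p = 0.031). Of its 3 other probe sets, 2 differed by -1.29 and -1.41 and the third by 0.10, given as a description. Both calls ended when 1 of several arrays was left out, with adjusted p up to 0.14 for Mir99a and 0.13 for Mir99ahg. For Mir99a these were untreated replicates 2 and 3, 1.5 h replicates 2 and 3 and 24 h replicate 1, and for Mir99ahg untreated replicates 2 and 3 and 1.5 h replicates 1 and 2. The Mir99ahg call also ended without both arrays high in Glycam1 (adjusted p = 0.11).

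Mir128-1 encodes miR-128, a microRNA known best from brain and muscle. It passed the limit of 5 through groups where it is high, with a mean of 4.94 without the untreated arrays and 4.99 without those of 6 h. Its values were 5.28, 5.37 and 5.93 untreated, 4.59, 4.45 and 4.48 at 1.5 h, 5.36, 5.75 and 5.0 at 6 h, and 4.92, 5.12 and 4.78 at 24 h. Those at 1.5 h were the lowest of all and close to each other. The difference was -1.02 with a standard error of 0.19 (limma, adjusted p = 0.020). That call ended when untreated replicate 3, 1.5 h replicate 2 or both arrays high in Glycam1 were left out (limma, adjusted p up to 0.082).

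Mir677, which lies inside the ATP synthase gene Atp5b, was the only member called lower at both the first and the last time. Others were low at both times without a call, such as Mir103-2 (-1.22 and -1.18). Mir677 read 5.75, 5.96 and 6.20 untreated, 5.15, 5.33 and 5.01 at 1.5 h, 6.04, 6.06 and 5.80 at 6 h, and 5.48, 5.26 and 5.32 at 24 h. At 6 h its arrays lay within the untreated range. The fall was -0.81 at 1.5 h (standard error 0.13, limma adjusted p = 0.011) and -0.62 at 24 h (limma adjusted p = 0.021). Without untreated replicate 3 the adjusted p was 0.052 at 1.5 h and 0.10 at 24 h.

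Mir143 encodes a microRNA that is typical of smooth muscle. It read 5.09, 5.37 and 4.99 untreated, 4.58, 4.45 and 4.28 at 1.5 h, 5.93, 5.68 and 5.75 at 6 h, and 5.52, 5.36 and 5.04 at 24 h. Groups at 1.5 h and 6 h lay wholly below and wholly above the untreated arrays, and at 24 h the ranges overlapped. It was the member called in opposite directions at different times: -0.71 at 1.5 h (standard error 0.14, limma adjusted p = 0.026) and 0.64 at 6 h (limma adjusted p = 0.019). Without the 6 h arrays its mean is 4.96, so Mir143 passed the limit of 5 only through the group where it is high. The mean level of 5 smooth muscle markers was 8.79 to 9.14 untreated, 8.39 to 8.64 at 1.5 h, 8.79 to 9.06 at 6 h and 8.60 to 9.08 at 24 h. Of those markers 1 was called lower at 1.5 h and 2 were called higher at 6 h than at 1.5 h, and their part in the Mir143 result was not tested. Leaving out any untreated array, or 1.5 h replicate 2 or 3, ended the call at 1.5 h (adjusted p up to 0.11). At 6 h untreated replicate 1, untreated replicate 3, 6 h replicate 1 and 6 h replicate 3 each ended the call when left out (adjusted p up to 0.087), as did leaving out both arrays high in Glycam1 (0.058).

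**Figure D2:**
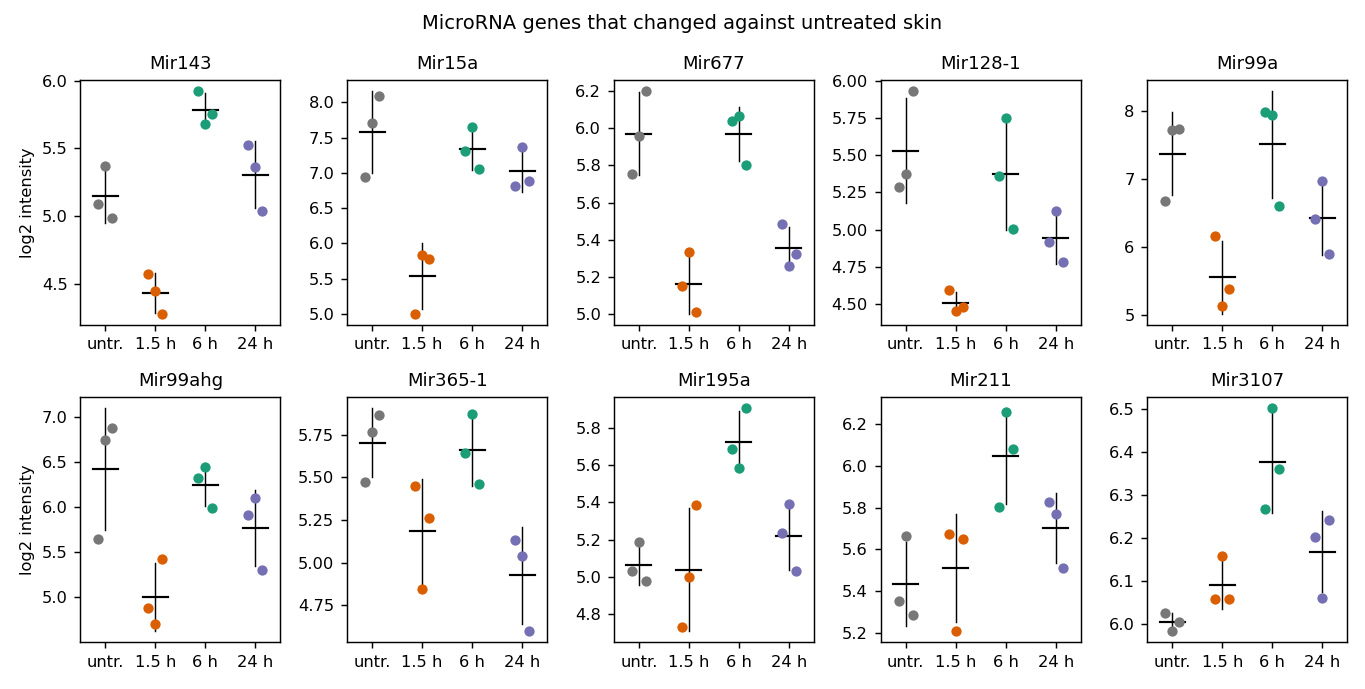
Log2 intensity (vertical axes, not starting at 0) of the 10 microRNA genes that changed against untreated skin at any time, by group; points are arrays, horizontal bars the mean and vertical bars 1 SD of 3 arrays. Mir15a and Mir128-1 have their 3 lowest arrays at 1.5 h, and Mir143 is low at 1.5 h (4.28 to 4.58) and high at 6 h (5.68 to 5.93).

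At 6 h, 4 of the 92 microRNA genes rose and 0 fell against untreated skin (4.35% called), beside 6.09% of all genes, 3.38% higher and 2.71% lower. The share called is therefore no larger than over all genes. The 4 were Mir195a, Mir143, Mir211 and Mir3107, of which Mir143 is a member only through its 6 h arrays. The largest of these rises was 0.66 on the log2 scale.

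Mir195a, from the same seed family as Mir15a, read 5.03, 5.19 and 4.98 untreated, 4.73, 5.0 and 5.39 at 1.5 h, and 5.69, 5.59 and 5.91 at 6 h. Every 6 h array lay above all arrays of both earlier groups, and at 24 h the values were 5.24, 5.39 and 5.03. The rise was 0.66 with a standard error of 0.16 (limma, adjusted p = 0.025). Mir211, a product of the melanocyte gene Trpm1, rose by 0.61 at 6 h (limma, adjusted p = 0.040), with 5.35, 5.66 and 5.29 untreated against 5.80, 6.26 and 6.08. Mir3107 overlaps Mir486, a microRNA gene of red blood cell precursors, and rose by 0.37 (limma, adjusted p = 0.039). Its untreated arrays at 6.03, 5.98 and 6.01 were very close together, and its 6 h arrays were at 6.27, 6.50 and 6.36. These calls were fragile: without untreated replicate 1, or without untreated replicate 3, 0 of the 92 genes passed. Without 6 h replicate 3 only 1 gene passed, and it was not among these 4. Without 6 h replicate 2 there were 2, Mir195a and Mir143. Leaving out the 4 arrays highest in Myl2, none of them untreated or at 6 h, also left Mir195a and Mir143.

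By 24 h, 2 of the 92 genes were lower than in untreated skin and 0 higher (2.17%), beside 3.36% of all genes, 0.808% lower and 2.55% higher. These were Mir677, described above, and Mir365-1. Mir365-1 encodes miR-365 and read 5.48, 5.77 and 5.87 untreated, 5.45, 4.85 and 5.26 at 1.5 h, 5.65, 5.87 and 5.46 at 6 h, and 5.13, 5.04 and 4.60 at 24 h. Those last arrays lay below the untreated and 6 h arrays and overlapped those of 1.5 h. Its fall was -0.78 with a standard error of 0.18 (limma, adjusted p = 0.032). Leaving out untreated replicate 2 or 3, or 24 h replicate 2 or 3, left 0 of 92 genes called, and leaving out untreated replicate 1 left 4. Without the 4 arrays highest in Myl2, which leaves a single array at 24 h, Mir365-1 differed from untreated skin by -0.66 and Mir677 by -0.71.

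An F test over all 3 times against untreated skin called 15 of the 92 genes (16.3%), beside 11.4% of all genes. That count fell to 8 when untreated replicate 3 or 1.5 h replicate 2 was left out, to 6 when 6 h replicate 2 was, and to 5 without the 4 arrays highest in Myl2. Over the pairwise comparisons with untreated skin, 10 of the 92 genes (10.9%) were called at least once, beside 9% of all genes.

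The largest number of calls came between 1.5 h and 6 h. In this comparison 27 of the 92 microRNA genes were higher at 6 h and 0 were lower, or 29.3%, beside 13.3% of all genes, 5.47% higher and 7.8% lower. Over all 13881 genes with a mean of 5 or more, 17.6% were called. Over all 300 microRNA genes the count was 44 higher and 0 lower, 14.7%, and over the 208 below the limit it was 17, or 8.17%. The median difference was 0.31 for the 92 genes and -0.03 for all genes, and 87 of the 92 were above 0. Among the 27 are Mir99ahg and Mir100hg, whose symbols name host genes of microRNAs. Mir143, Mir107 and Mir128-1, also among the 27, have means below 5 without the 6 h arrays.

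Changes here ran from 0.35 (Mir127) to 1.95 (Mir99a), and 9 genes reached 1 or more. Mir99a rose by 1.95 (limma, adjusted p = 0.0090), Mir15a by 1.80 (0.0016), Mir103-2 by 1.52 (0.012), Mir680-2 by 1.48 (0.0017) and Mir143 by 1.35 (3.96e-05), where the value in brackets is limma's adjusted p. Mir505 followed with 1.26, Mir99ahg with 1.25, Mir100hg with 1.08 and Mir205 with 1.06. The other 18 rose by less than 1, from Mir199a-1 and Mir128-1 at 0.86 down to Mir127 at 0.35. Of the 27, 19 were not called against untreated skin at 1.5 h or 6 h, comparisons that share arrays with this one.

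Mir103-2 encodes miR-103, known for its role in insulin sensitivity. Its values were 6.24, 6.64 and 6.54 untreated, 5.25, 5.62 and 4.88 at 1.5 h, 6.50, 7.31 and 6.50 at 6 h, and 5.77, 5.73 and 4.39 at 24 h. Untreated and 6 h arrays were all above the 1.5 h and 24 h arrays. Its falls against untreated skin did not pass, at -1.22 for 1.5 h (limma, adjusted p = 0.078) and -1.18 for 24 h (limma, adjusted p = 0.077). Mir680-2 read 7.37, 7.35 and 7.73 untreated, 7.06, 6.53 and 6.34 at 1.5 h, 8.28, 8.49 and 7.58 at 6 h, and 7.19, 6.95 and 6.67 at 24 h. Mir680-2 and Mir680-3 carry the same mature sequence, so their probes may not tell these copies apart, and Mir680-3 differed by 0.33 between 6 h and 1.5 h (limma, adjusted p = 0.19).

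Mir205 read 5.89, 6.17 and 6.20 untreated, 5.21, 5.28 and 5.37 at 1.5 h, 6.27, 6.37 and 6.42 at 6 h, and 6.01, 5.49 and 4.51 at 24 h. Groups at 1.5 h and 6 h were tight and far apart, while the 24 h arrays were spread from 4.51 to 6.01. It rose by 1.06 from 1.5 h to 6 h (standard error 0.26, limma adjusted p = 0.021) and differed by -0.80 at 1.5 h from untreated skin (limma, adjusted p = 0.14). In 24 h replicate 3 Mir205, Mir103-2 (4.39) and Mir100hg (5.15) were all lower than on any other array. In that array the mean of 5 fibroblast markers was 9.81, against 10.54 and 10.85 in the other 24 h arrays. It was also the lowest 24 h array in smooth muscle (8.60), endothelium (7.21) and sebaceous gland (8.50) markers. In hair follicle (5.87), glandular epithelium (8.19) and lymph node (5.62) markers it was the highest. The part of these differences in the low values was not tested.

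**Figure D3:**
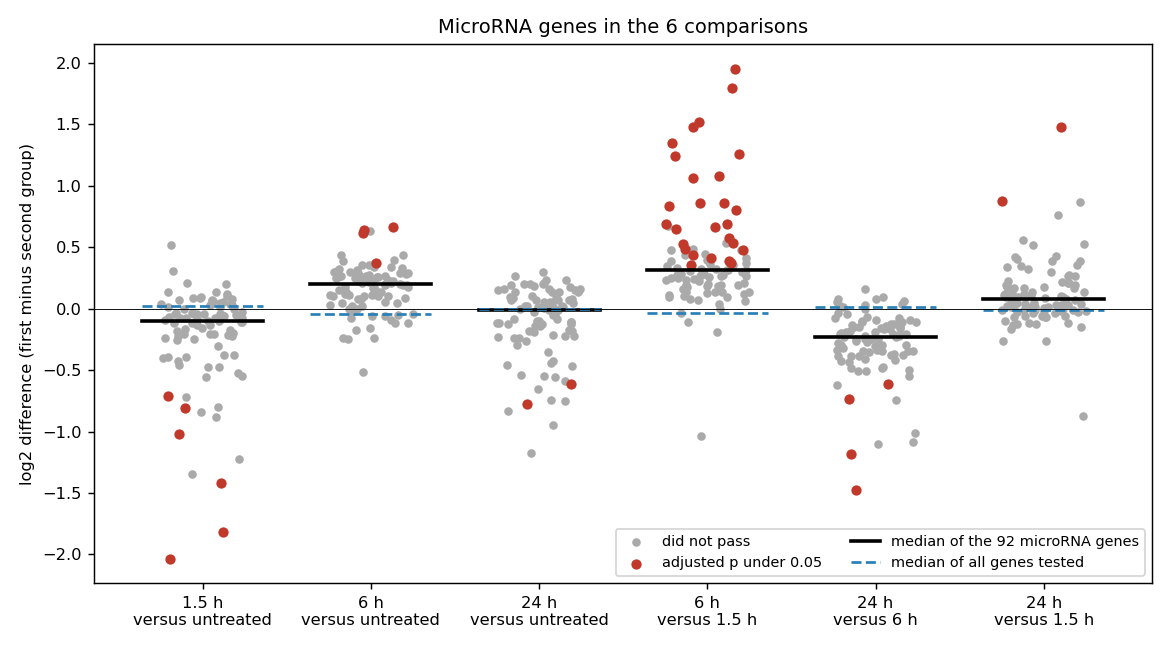
Log2 difference (first minus second group, vertical axis) of the 92 microRNA genes in each of the 6 comparisons; red points passed an adjusted p under 0.05, grey points did not, solid bars are the median of the 92 genes and dashed bars that of all genes tested. Between 6 h and 1.5 h, 27 points are red and all lie above 0.

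The count between 6 h and 1.5 h depended on single arrays and on how arrays were scaled. It was 9 when either 1.5 h replicate 1 or 1.5 h replicate 2 was left out, 6 when 6 h replicate 2 was, and 11 when both arrays high in Glycam1 were. Without the 4 arrays highest in Myl2 it was 5, namely Mir143, Mir103-2, Mir680-2, Mir205 and Mir677, and the median over the 92 genes was 0.21, with 436 of all genes called in place of 2646. Of the 27 genes, Mir143, Mir15a, Mir199a-1, Mir677 and Mir680-2 were called with any 1 array left out and under every other scaling and variance setting tried. Among these, Mir143 is a member only through its 6 h arrays. With each array centred on its median, 18 microRNA genes were higher and 1 lower, while over all genes the split moved from 1090 higher and 1556 lower to 760 and 3849. The median of all genes moved from -0.03 to -0.17 with that centring, and that of the microRNA genes from 0.31 to 0.18. The 1 lower gene was Mir1839, named after its values were seen, which differed by -1.03 between 6 h and 1.5 h (limma, adjusted p = 0.064, and 0.029 with median centring). Its mean is 4.91 without the 1.5 h arrays, the group where it is high.

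From 6 h to 24 h, 4 of the 92 genes fell and 0 rose (4.35%), beside 3.44% of all genes, 1.41% lower and 2.03% higher. Mir103-2 fell by 1.47 (limma, adjusted p = 0.032), Mir680-2 by 1.18 (0.018), Mir365-1 by 0.73 (0.045) and Mir677 by 0.61 (0.028). Without 6 h replicate 2, or without 24 h replicate 3, 0 genes passed, and without 6 h replicate 3 or 24 h replicate 2 there were 2. With median centring the split over all genes moved from 404 higher and 281 lower to 909 and 224, and 6 microRNA genes were lower. From 1.5 h to 24 h, 2 of the 92 genes rose and 0 fell (2.17%), beside 2.91% of all genes, 2.24% higher and 0.667% lower: Mir15a by 1.48 (limma, adjusted p = 0.011) and Mir143 by 0.87 (limma, adjusted p = 0.0033). Without 24 h replicate 2 the Mir15a call ended (adjusted p 0.065). Leaving out the 4 arrays highest in Myl2 leaves a single array at 24 h and a single array at 1.5 h. From 6 h to 24 h the differences were then -1.04 for Mir103-2, -1.16 for Mir680-2, -0.62 for Mir365-1 and -0.71 for Mir677. From 1.5 h to 24 h they were 1.58 for Mir15a and 1.08 for Mir143.

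In all, 29 of the 92 genes (31.5%) were called in at least 1 of the 6 comparisons, beside 18.3% of all genes.

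Among the 92 genes, 29 shared a seed with another member, through 16 seeds. In the AGCAGCA family Mir15a fell at 1.5 h, Mir195a rose at 6 h, and Mir497 stayed between 4.79 and 5.24 on all arrays. Mir497 and Mir195a lie in 1 cluster, and Mir497 differed by 0.05 at 6 h from untreated skin with Mir195a at 0.66; the difference between these genes was not tested. For the seed GCAGCAU, Mir103-2 rose by 1.52 and Mir107 by 0.53 from 1.5 h to 6 h (limma, adjusted p = 0.028 for Mir107). The mean of Mir107 is 4.94 without the 6 h arrays, below the limit of 5. Mir99a rose by 1.95 in that interval, whereas Mir99b differed by 0.10 (limma, adjusted p = 0.67).

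In the miR-181 family, Mir181b-2 rose by 0.83, Mir181a-2 by 0.65 and Mir181d by 0.37 from 1.5 h to 6 h, and Mir181c differed by 0.13 (limma, adjusted p = 0.036, 0.019, 0.047 and 0.67). Mir181a-2 and Mir181b-2 lie in 1 cluster on chromosome 2, and Mir181c and Mir181d in another on chromosome 8. The family's mature strands are known for tuning T cell receptor signalling. Members of 1 cluster can share a primary transcript, and so are not separate observations. Mir365-1 and Mir365-2 share the seed AAUGCCC, and at 24 h Mir365-2 differed from untreated skin by -0.11, beside -0.78 for Mir365-1. Of the let-7 family, known for holding back growth genes, Mirlet7e differed by -0.38 at 1.5 h and Mirlet7i by 0.06, and neither was called in any comparison.

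In RefSeq, 56 of the 92 genes lay inside the span of another gene, 37 of them known to be on the same strand. For 29 of these 37 the host was itself measured, through 26 hosts. For others of the 56 the strand was not known, so no host is counted. These include Mir346, Mir615 and Mir694, which rose from 1.5 h to 6 h. Mir99a lies outside the RefSeq span of Mir99ahg, so that pair is not counted here. Of the 27 genes that rose from 1.5 h to 6 h, 8 had a measured host, and 1 of these hosts was called, beside 13.3% of all genes. That host was Dleu2, in which Mir15a lies: it rose by 0.58 (limma, adjusted p = 0.020) after a fall of -0.62 at 1.5 h (limma, adjusted p = 0.042). Both Dleu2 calls ended when 1 of several arrays was left out, the rise without replicate 1 or 2 of either group and the fall without any untreated array, 1.5 h replicate 1 or 2, 6 h replicate 2 or 24 h replicate 1. Both also ended without the 4 arrays highest in Myl2. Dleu2 read 2.08, 2.15 and 2.45 untreated, 1.52, 1.45 and 1.83 at 1.5 h, and 2.35, 2.27 and 1.94 at 6 h, a level near the bottom of the arrays' range.

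The other 7 hosts ranged from -0.33 to 0.90 and were not called. Pank2, host of Mir103-2 and an enzyme of coenzyme A synthesis, differed by 0.11 beside 1.52 for Mir103-2. R3hdm1 differed by 0.09 beside 0.86 for Mir128-1, and Trpm1 by 0.09 beside 0.54 for Mir211. Atp5b, at a mean level of 11.37, differed by -0.33 beside 0.80 for Mir677. Sf3a3, a splicing factor and host of Mir697, differed by -0.27 beside 0.39. Rian, a non-coding RNA and host of Mir341, differed by 0.90 (limma, adjusted p = 0.16) beside 0.41. Pank1 differed by 0.01 beside 0.53 for Mir107, but had fallen against untreated skin by 0.65 at 1.5 h (limma, adjusted p = 0.014, and 0.26 without the 4 arrays highest in Myl2), and its later differences were -0.63 and -0.56. Both Mir128-1 and Mir107 have means below the limit of 5 without the 6 h arrays. Over the 29 pairs the median difference was 0.35 for the microRNA genes and 0.03 for the hosts. In 17 pairs neither was called, and in 4 the host alone was, in a comparison that called 13.3% of all genes. Spaca6, host of Mir99b, Mirlet7e and Mir125a, rose by 0.63, and Igf2, host of Mir483, fell by 0.58. The Spaca6 call ended with 6 of 12 arrays left out singly and the Igf2 call with 8 (limma, adjusted p up to 0.15 and 0.17), and both ended without the arrays high in Glycam1 or those in Myl2. Quantile and cyclic loess scaling also ended the Igf2 call.

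**Figure D4:**
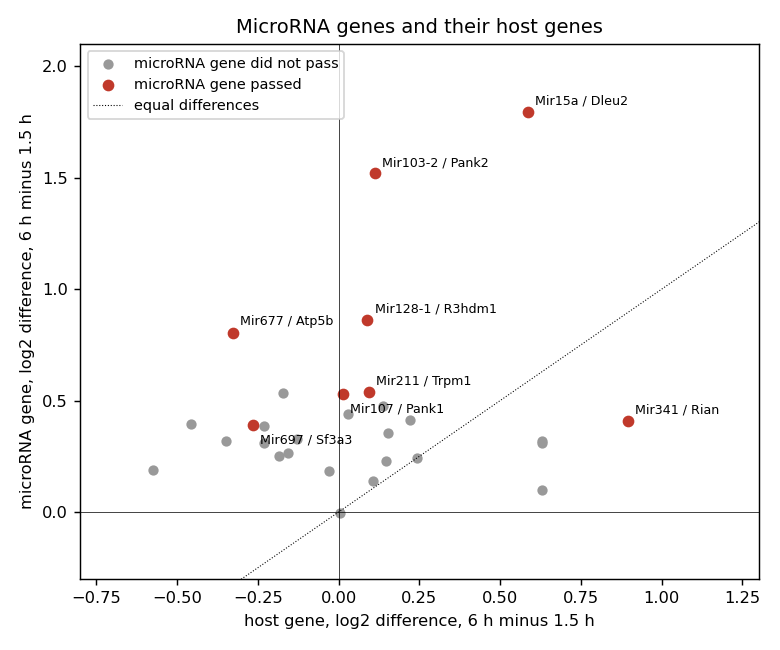
Difference from 1.5 h to 6 h (log2) of a microRNA gene (vertical axis) against that of the gene in which it lies on the same strand (horizontal axis), for the 29 pairs measured; red points are microRNA genes that passed, named with their host, and the dotted line marks equal differences. Of the 8 red points, 7 lie above the line of equal differences and Mir341 lies below it, with 0.41 against 0.90 for Rian.

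Within 10 kb and on the same strand, 23 of the 92 genes formed 9 clusters. The cluster of Mir23a, Mir27a and Mir24-2 differed from 1.5 h to 6 h by 0.29, 0.44 and 0.18, and none was called. Chromosome 12, which carries a large imprinted group of microRNA genes, held 13 of the 92. Of these, Mir680-3 and Mir345 lie outside the stretch from Mir673 to Mir668 that holds the rest. Over all 13, differences from 1.5 h to 6 h ran from -0.10 (Mir337) to 0.67 (Mir679), with a median of 0.28. Mir341 and Mir127 were called, 2 of the 13, beside 13.3% of all genes.

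Some microRNAs known from inflammation or epidermis lay near or below the limit. Mir155, which passed that limit only with its 6 h arrays, read 4.97, 5.01 and 4.80 untreated, 4.84, 4.87 and 4.97 at 1.5 h, 5.19, 5.40 and 5.19 at 6 h, and 5.09, 4.73 and 4.96 at 24 h. All 6 h arrays were above all other arrays, yet the difference of 0.34 from untreated skin did not pass (95% interval 0.09 to 0.58, limma adjusted p = 0.10), nor did that of 0.37 from 1.5 h (limma, adjusted p = 0.051). Mir142, a microRNA of blood cells, Mir146, which damps signalling from innate receptors, and Mir203, of differentiating epidermis, were below the limit, at mean levels of 3.25, 1.99 and 2.56. At 6 h they differed from untreated skin by 0.43, -0.05 and 0.03, and limma's adjusted p was 0.20, 0.87 and 0.90. At such levels a mature microRNA that is abundant in skin can go unseen by this array.

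The genes that make, load, edit or degrade microRNAs were read from a list of which 36 were measured. At 1.5 h 0 of the 36 were called in limma, and 12 had an unadjusted p under 0.05 (33.3%, beside 17.5% of all genes). At 6 h 5 rose and 0 fell (13.9%), and at 24 h 3 rose and 0 fell (8.33%), against the shares of all genes given above. Median differences of the list were -0.15, -0.06 and -0.11 at the 3 times.

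The genes that rose are known for responses to interferon or for turnover of RNA. Mov10, an RNA helicase bound to Argonaute proteins, read 7.12, 7.27 and 7.10 untreated, 7.41, 6.91 and 7.04 at 1.5 h, 9.48, 9.11 and 8.88 at 6 h, and 8.47, 8.65 and 8.31 at 24 h. It rose by 1.99 at 6 h (limma, adjusted p = 2.407e-06) and by 1.31 at 24 h (limma, adjusted p = 0.00023). Adar, which edits adenosines in double-stranded RNA such as hairpins, rose by 1.75 at 6 h (limma, adjusted p = 1.491e-06) and by 1.06 at 24 h, from 6.49 ± 0.13 (SD, n = 3) untreated. Pnpt1, a 3' to 5' exonuclease, rose by 1.27 at 6 h and 0.51 at 24 h. Tut4, which adds uridines to precursors, rose by 0.56 at 6 h (limma, adjusted p = 0.0082), and Xrn2, a nuclear exonuclease, by 0.50 (limma, adjusted p = 0.024). The Xrn2 call ended when replicate 1 or 2 of the untreated or the 6 h group was left out. It also ended without both arrays high in Glycam1 (limma, adjusted p = 0.083). That of Pnpt1 at 24 h ended without any 1 of the 3 untreated or 3 24 h arrays. A block for the replicate number, or no moderation of the variance, ended it too. Without the 4 arrays highest in Myl2 those same 2 calls ended, and the other 6 against untreated skin held.

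None of the core steps was called against untreated skin at any time: Drosha, Dgcr8, Xpo5, Dicer1 and Ago1 to Ago4. The lowest adjusted p among them was that of Ago3 at 1.5 h (-0.65, limma adjusted p = 0.064). Dgcr8 differed by -0.31, -0.33 and -0.39 at the 3 times (limma, adjusted p = 0.17, 0.099 and 0.084). Dicer1 differed by -0.27, -0.14 and -0.32. From 1.5 h to 6 h, 8 of the 36 genes rose and 2 fell (27.8%, beside 13.3% of all genes). The rises included Tut4 at 0.87, Xrn1 at 0.92 and Tut7 at 0.64, and Tsn and Tsnax, subunits of a nuclease that clears passenger strands, fell by 0.55 and 0.39. The Tsn call ended without 1.5 h replicate 2 or 6 h replicate 2, and that of Tsnax without 1.5 h replicate 1 or 2 or any 6 h array and under cyclic loess scaling (limma, adjusted p up to 0.069 and 0.13). Both calls ended without the arrays high in Glycam1 or those in Myl2, and without the latter the rises of Xrn1 and Tut7 did not pass.

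**Figure D5:**
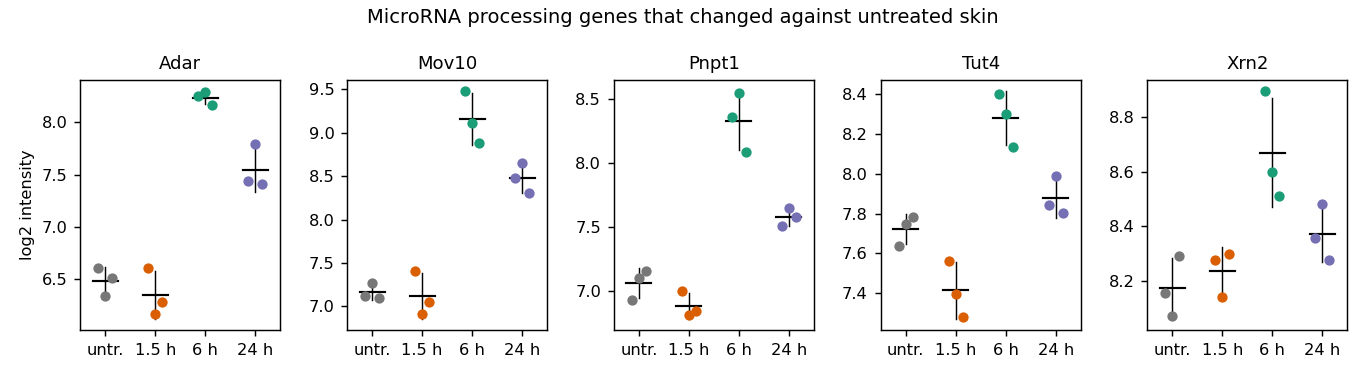
Log2 intensity (vertical axes, not starting at 0) of the 5 genes of the microRNA pathway list that changed against untreated skin, by group; points are arrays, horizontal bars the mean and vertical bars 1 SD of 3 arrays. Mov10, Adar and Pnpt1 have every 6 h and 24 h array above every untreated and 1.5 h array.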

How the data were processed

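Per the submitters' processing notes, the authors used Affymetrix Expression Console 1.1 and RMA, and the deposited values are log2 intensities. The array's genome build is not given in the sources used here. Of 35556 probe sets, 21789 had 1 gene symbol in the platform annotation, 1621 had several and 12146 were not listed. Only those with 1 symbol were used, and 61 probe sets with several symbols that include a microRNA gene were not. For genes with several probe sets the one with the highest mean was kept, which left 19938 genes. Mir99ahg was such a member.

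One linear model per gene over all 12 arrays was fitted with limma 3.58.1 under R 4.3.3 (lmFit, eBayes, with 8 residual and 5.24 prior degrees of freedom). It was also run on simulated data with independent noise for each gene. Those data hold no shift shared by the genes of an array, so they do not cover differences in tissue between arrays. Each time was compared with untreated skin and with each other time. P-values are two-sided and adjusted over all genes. Error is the SD of 3 arrays or the model's standard error, and the number of arrays limits the precision. Hosts, clusters and sequences come from RefSeq tables, matched by gene ID for 92 of 92 members.

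The members and lists were chosen with earlier results of these data known. Genes are named if called in any comparison, among the 5 highest, beside the limit of 5, known from inflammation or skin, a host, or a called processing gene. Alternatives were each array left out in turn, a block for the replicate number, trend and robust variance, no moderation, median centring, quantile and cyclic loess scaling, a filter on dim genes, the mean of probe sets, and limits of 4 and 6. Leaving out both arrays high in Glycam1, and the 4 arrays highest in Myl2, was chosen after seeing the data.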

Additional observations from a re-analysis of the deposited data

Results flagged for a closer look

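For 12 comparisons between treated times, the difference itself passed limma's test (adjusted p under 0.05) in a gene that had also changed against untreated skin at 1 of those times. The 2 comparisons of such a gene share arrays, so 1 is not separate support for the other. The share of all genes that meet this rule was not counted. From 1.5 h to 6 h these were Mir99a (1.95), Mir15a (1.80), Mir143 (1.35), Mir99ahg (1.25), Mir128-1 (0.86), Mir677 (0.80), Mir195a (0.69) and Mir211 (0.54), on the log2 scale. Between 6 h and 24 h they were Mir365-1 (-0.73) and Mir677 (-0.61). From 1.5 h to 24 h they were Mir15a (1.48) and Mir143 (0.87). Of these genes, Mir143 and Mir128-1 have means below the limit of 5 without the 6 h arrays (4.96 and 4.99). Under other settings or with arrays left out, the call of Mir211 from 1.5 h to 6 h was lost in 15 of 22 and that of Mir365-1 in 16 of 22, the replicate block among them in both. Without the 4 arrays highest in Myl2 only Mir143 and Mir677 from 1.5 h to 6 h passed of these 12. Groups of 3 arrays were too small to look for single outlying arrays.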

How the results depend on the processing

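With 1 array left out, the number of microRNA genes called ran from 1 to 9 at 1.5 h, 0 to 5 at 6 h and 0 to 4 at 24 h against untreated skin, 6 to 26 from 1.5 h to 6 h, 0 to 4 from 6 h to 24 h, 1 to 2 from 1.5 h to 24 h, and 6 to 17 in the F test; that of processing genes ran from 0 to 3, 4 to 7 and 2 to 3. Without moderation of the variance the microRNA counts were 0 at 1.5 h, 2 at 6 h, 0 at 24 h, 8 from 1.5 h to 6 h, 0 from 6 h to 24 h, 1 from 1.5 h to 24 h and 4 in the F test. Quantile scaling gave 17 from 1.5 h to 6 h (16 higher, 1 lower) and 2 from 6 h to 24 h. A limit of 6, which left 33 genes, gave 2, 1 and 0 against untreated skin, and 11, 1 and 1 between times. Leaving out dim genes gave 9 calls from 6 h to 24 h and 2 processing genes at 1.5 h, where the trend and robust variance also gave 2. Without both arrays high in Glycam1, 11 genes were called from 1.5 h to 6 h, 9 of them among the 27. Without the 4 arrays highest in Myl2 the counts were 0, 2 and 0 against untreated skin, 5, 0 and 0 between times and 5 in the F test. Of 79 calls of single members, processing genes and hosts, no direction reversed under any of these settings. The number kept ran from 20 without the Myl2 arrays, 32 without moderation and 38 without 6 h replicate 2 to 78 with the mean of probe sets, and 77 of 77 without dim genes. The replicate number as a block gave 2 microRNA genes at 6 h and 1 processing gene at 1.5 h, and kept 69 of the 79 calls. Same-numbered arrays correlated at -0.22 to 0.33 and others at -0.28 to 0.24, so the numbers were not taken as pairs. The cause of these shifts was not tested. Signal limits the rest: 59 of the 92 genes lie below 6, and the files give no detection call.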

Other observations

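The share of G and C in the hairpin, known for 70 of the 92 genes, ran from 36.99% to 69.23% with a median of 56.56%. Across those genes it correlated with the mean level over all arrays (Pearson r = 0.44, Spearman rho = 0.48), a description over genes that share arrays and whose probes share that base composition. The median share was 51.85% in the 20 of them called from 1.5 h to 6 h and 58.64% in the 50 not called, also a description.

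Mir1839 was the member with the lowest difference from 1.5 h to 6 h. It read 5.96, 6.21 and 4.97 at 1.5 h and 4.43, 4.75 and 4.87 at 6 h, and did not pass in the main fit. Without 1.5 h replicate 3, the lowest of the 1.5 h arrays, it passed as lower (limma, adjusted p = 0.019). Its mean is 4.91 without the 1.5 h arrays, so it passed the limit of 5 only through the group where it is high.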
